A study of Mus musculus with 18 samples.

Results

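Wide NIPBL domains were regions in which both dCas9 control lists held an unbroken NIPBL peak of at least 2000 bp. They were chosen by peak length alone: wide peaks of the pair of lists were merged where they overlapped, and a merged region was kept when it held a wide peak from each. This gave 120 domains out of 32155 NIPBL regions with a peak in both control lists. Another 157 merged regions held a wide peak in 1 list only. The start of chromosome 9 (chr9:1-3100000) was left out. Just inside the threshold, the shorter of a domain's longest peaks measured 2001, 2003 and 2009 bp, and just outside it measured 1999, 1997 and 1992 bp. Because NIPBL in control cells chose the domains, its values there are a description.

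The libraries were ChIP-seq of RAD21 and of NIPBL from mouse v-Abl transformed pro-B cells, an early B lineage line, kept for 4 days in 3 uM STI-571, an inhibitor of the Abl kinase. All groups shared a deletion of JH, dCas9 expression, an Emu-Bcl2 transgene (driven by the Igh enhancer Eμ) and RAG2 deficiency. Block cells also expressed an sgRNA named for Sg1, and were compared with dCas9 control cells for NIPBL (n = 2 and 2) and for RAD21 (n = 2 and 2). Ig2b-del/del cells (deleted, n = 3) were compared with Ig2b wild type cells (n = 3) for RAD21. The labels do not say whether replicates were separate cultures, so p-values measure the spread between these libraries, which may be technical. Read depth was unknown for all lists. A value below is the length or share of a domain that called peaks cover, not a read density.

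NIPBL loads the cohesin ring onto chromatin and drives it along DNA as loops are extruded. RAD21 is a core subunit of that ring and marks where cohesin sits, often at sites bound by CTCF. NIPBL is known from many cell types for its peaks at active promoters, and the related yeast loader is known for its sites at genes read by RNA polymerase III, the polymerase of tRNA, 5S and other small RNA genes.

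The label of wide domains held for their length, but they were not of 1 kind. Their widths ran from 2081 to 19263 bp, with a median of 2800.5 bp. In 60 of the 120 domains at least 50% of the 31-base words also occurred elsewhere in the mm9 genome, against 43.6% of the other NIPBL regions and 31.1% of the other NIPBL regions of 1000 bp or more. Reads from such words can come from any of their copies, and the part this plays in the peak lengths was not tested. Sorted by sequence and annotation, after their values had been seen, 54 domains were promoters of protein-coding genes, 26 were GC-rich tandem arrays of high copy number and 9 lay in the 5S rRNA gene array of chromosome 8. Another 11 lay in an array of chromosome 6 that holds the small RNA gene Rn4.5s (the 4.5S array), and 6 tiled the start of chromosome 11. The rest were 11 other repeats and 3 other regions that were single-copy in the assembled mm9 chromosomes. Copies missing from the assembly were not counted.

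The 26 GC-rich tandem arrays are shown first by their units, since sequence is what sets them apart. They lay on 13 chromosomes and fell into 3 families by alignment over at least 1000 bp. The largest held 17 arrays with 91.83% to 98.7% identity, the next 6 arrays with 95.84% to 97.82%, and the last 3 arrays with 98.84% to 99.52%. One unit is shown from each of 2 arrays of the largest family and from 1 array of each other family, read from mm9, with CG dinucleotides in capitals.
Family 1, chr15:91822711-91822918, + strand: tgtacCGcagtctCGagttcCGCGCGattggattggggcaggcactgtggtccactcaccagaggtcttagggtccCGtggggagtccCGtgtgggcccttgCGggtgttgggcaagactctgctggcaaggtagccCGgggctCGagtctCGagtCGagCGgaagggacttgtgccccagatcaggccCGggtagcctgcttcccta
Family 1, chr2:21926080-21926287, + strand: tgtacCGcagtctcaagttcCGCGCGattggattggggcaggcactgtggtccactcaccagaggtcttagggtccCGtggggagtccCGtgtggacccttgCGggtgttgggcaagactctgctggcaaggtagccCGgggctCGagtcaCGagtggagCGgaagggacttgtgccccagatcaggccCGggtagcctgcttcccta
Family 4, chr9:80850968-80851179, + strand: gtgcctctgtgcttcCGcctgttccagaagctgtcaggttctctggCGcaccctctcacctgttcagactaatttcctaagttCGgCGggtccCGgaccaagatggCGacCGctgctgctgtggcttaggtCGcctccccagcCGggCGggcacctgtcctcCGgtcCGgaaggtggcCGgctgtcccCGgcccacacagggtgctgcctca
Family 5, chr6:56197475-56197680, + strand: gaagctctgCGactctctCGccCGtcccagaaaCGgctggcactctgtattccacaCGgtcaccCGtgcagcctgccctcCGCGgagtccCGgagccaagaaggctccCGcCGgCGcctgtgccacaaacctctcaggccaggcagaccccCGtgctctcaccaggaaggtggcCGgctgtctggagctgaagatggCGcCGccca
The 2 units of family 1, from different chromosomes, were 98.08% identical. Against them the family 4 unit was 57.2% and 56.15% identical and the family 5 unit 57.26% and 56.49%, and those 2 were 64.76% identical to each other. The units of families 4 and 5 were taken at the strand and rotation closest to the first unit shown, which raises such values. No unrelated sequence was aligned in the same way, so these values between families do not measure relatedness. In 20 of the 26 arrays the sequence repeated with a single period of 200 to 220 bp, which was 208 bp in 14 of them. In 15 arrays the longest open frame between stop codons within 8 kb of the array had the same length, 1300 codons. The median longest frame was 229 codons beside the 94 other domains, of which 6 had one of 1000 codons or more. Tandem units ahead of long frames are the known layout of full-length mouse LINE-1 retrotransposons. No repeat annotation was used here, so the arrays are called by their sequence.

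The domains of the RNA polymerase III genes are shown next. The 5S gene array spans chr8:126062686-126147645 in the annotation, with 51 genes at a median spacing of 1697.5 bp, and 41 of the genes lay in 9 domains. The 11 domains of chromosome 6 lay between chr6:47612977 and chr6:47715632, between Ezh2 and Pdia4. RefSeq lists Rn4.5s between these 2 genes on its own build, GRCm38.p6. Each of the 11 domains held 1 match of the B box, the inner promoter element of many RNA polymerase III genes (searched as GTTCGANNC on both strands), all on the − strand and a median of 4348 bp apart. The 99 bases around the first match, with the B box in capitals, were the same in 8 of the 11 domains.
B box of the first domain, chr6:47613653-47613751, − strand: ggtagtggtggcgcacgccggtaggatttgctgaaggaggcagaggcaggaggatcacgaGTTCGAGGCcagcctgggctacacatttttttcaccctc
A domain of chromosome 1, chr1:173001881-173004525, held 5 B boxes. It lies between Fcgr3 and 1700009P17Rik, where RefSeq lists 17 genes on GRCm38.p6, all of them tRNA genes. The 5 matches (capitals) with 10 bases either side are shown because they stand on both strands within 1 domain.
chr1:173001925-173001953, − strand: cgcggcccggGTTCGATTCccggtcaggg
chr1:173002467-173002495, − strand: gttgacccggGTTCGATTCccggccaacg
chr1:173003126-173003154, − strand: ggagaccgggGTTCGATTCcccgacgggg
chr1:173003802-173003830, + strand: ggaggcgtggGTTCGAATCccactcctga
chr1:173004473-173004501, + strand: ggaggcccggGTTCGATTCccggcccatg
A B box match lay in 27 of the 120 domains (22.5%), in 11.15% of the other NIPBL regions of 1000 bp or more and in 5.147% of all NIPBL regions. Per length the difference was smaller or turned round: 0.9573 matches per 10 kb in the domains, 0.894 per 10 kb in the other regions of 1000 bp or more and 1.145 per 10 kb in all regions. A match is a description of the letters, not of binding.

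The genes whose starts lay in the 54 promoter domains were of several kinds. Among them were Jun and Jund, subunits of the AP-1 factor, Foxo1 and Bach2, factors of early B cells, and Runx3, Klf13, Cux1, Pou2f1, Sp3, Hivep2 and Zbtb7a, other DNA-binding proteins. They also held Pim1, a kinase gene induced by STAT5, Socs2, an inhibitor of cytokine signalling, Trib1, a pseudokinase, Ddit4, an inhibitor of mTORC1, and Zfp36l2, a protein that speeds mRNA decay. Genes of RNA-binding and chromatin proteins were there too, among them Hnrnpa0, Hnrnpa2b1 (sharing a domain with Cbx3), Syncrip, Arid1a, Brd2, Hmgb1 and Hmga1. The bases before the start of 4 of them show how far CG dinucleotides (capitals) vary between such promoters.
Jun, chr4:94718914-94719153, − strand: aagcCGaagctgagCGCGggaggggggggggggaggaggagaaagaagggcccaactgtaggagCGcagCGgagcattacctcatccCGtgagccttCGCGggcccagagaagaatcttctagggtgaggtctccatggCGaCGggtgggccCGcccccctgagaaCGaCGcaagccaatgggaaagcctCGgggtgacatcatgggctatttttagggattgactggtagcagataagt
Foxo1, chr3:52072019-52072258, + strand: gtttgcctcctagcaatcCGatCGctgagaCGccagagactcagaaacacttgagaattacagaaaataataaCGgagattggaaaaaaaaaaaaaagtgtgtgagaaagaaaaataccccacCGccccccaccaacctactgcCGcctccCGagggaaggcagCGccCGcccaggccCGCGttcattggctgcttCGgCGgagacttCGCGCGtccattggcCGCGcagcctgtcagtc
Pim1, chr17:29627517-29627756, + strand: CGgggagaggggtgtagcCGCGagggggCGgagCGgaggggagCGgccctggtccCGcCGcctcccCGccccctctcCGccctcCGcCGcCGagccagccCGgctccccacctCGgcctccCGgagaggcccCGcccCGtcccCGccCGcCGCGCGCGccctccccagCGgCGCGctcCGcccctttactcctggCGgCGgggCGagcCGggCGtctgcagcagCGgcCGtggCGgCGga
Socs2, chr10:94879815-94880054, − strand: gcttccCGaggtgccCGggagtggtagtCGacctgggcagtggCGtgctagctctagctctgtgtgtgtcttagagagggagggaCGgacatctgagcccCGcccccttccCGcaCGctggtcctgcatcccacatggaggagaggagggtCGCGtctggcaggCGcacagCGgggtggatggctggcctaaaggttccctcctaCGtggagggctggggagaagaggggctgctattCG
These 240-base stretches held 14 CG in Jun, 18 in Foxo1, 37 in Pim1 and 14 in Socs2. Over the whole domains the median CpG observed-to-expected ratio was 0.8232 at a GC content of 66.93%, against 0.7529 and 64.5% over the other NIPBL regions of 1000 bp or more and 0.5786 and 60.64% over all NIPBL regions. The core of the CTCF motif (11 bp, either strand) matched in 1 promoter domain, that of Mex3b, and in 5 of the 11 domains of the chromosome 6 array. In all, 8 of the 120 domains (6.667%) had a match, and 2.574% of the other NIPBL regions of 1000 bp or more. Per length this turned round: 0.2176 matches per 10 kb in the domains, 0.2294 per 10 kb in the other regions of 1000 bp or more and 0.4411 per 10 kb in all regions.

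Gene lists for this cell type were read against the domains. The start of 67 of 22208 protein-coding genes (0.3017%) lay in a domain. It did for 2 of 26 early B lineage genes (Foxo1 and Bach2), 2 of 15 genes of the STAT5 and Abl response (Socs2 and Pim1), 3 of 19 immediate early genes (Jun, Zfp36l2 and Jund) and 1 of 15 splicing factor genes (Hnrnpa2b1). Of 70 replication-dependent histone genes 4 did: Hist2h2aa1, Hist2h3c1, Hist2h2aa2 and Hist2h3c2, in a pair of near-identical domains with 99.56% identity, so that reads of the 2 copies cannot be told apart. No start lay in a domain among 79 cytosolic ribosomal protein genes, 14 cohesin and CTCF genes, 11 housekeeping genes and 11 annotated microRNA host and long noncoding RNA genes. Starts of most of these lay in some NIPBL region: 72 of the 79, 13 of the 14, 11 of the 11 and 7 of the 11. Marker genes of other cell types had none in a domain either. In any NIPBL region lay starts of 3 of 11 T cell, 1 of 9 myeloid and 0 of 8 erythroid genes. That compares with 21 of the 26 early B lineage genes and 9732 of the 22208 protein-coding genes (43.82%). At the start of the myeloid gene Fcgr3 the longest NIPBL peak measured 2565 and 2975 bp in block cells, against 0 and 2479 bp in control cells. The lists were drawn up with earlier results of these data known.

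**Figure D1:**
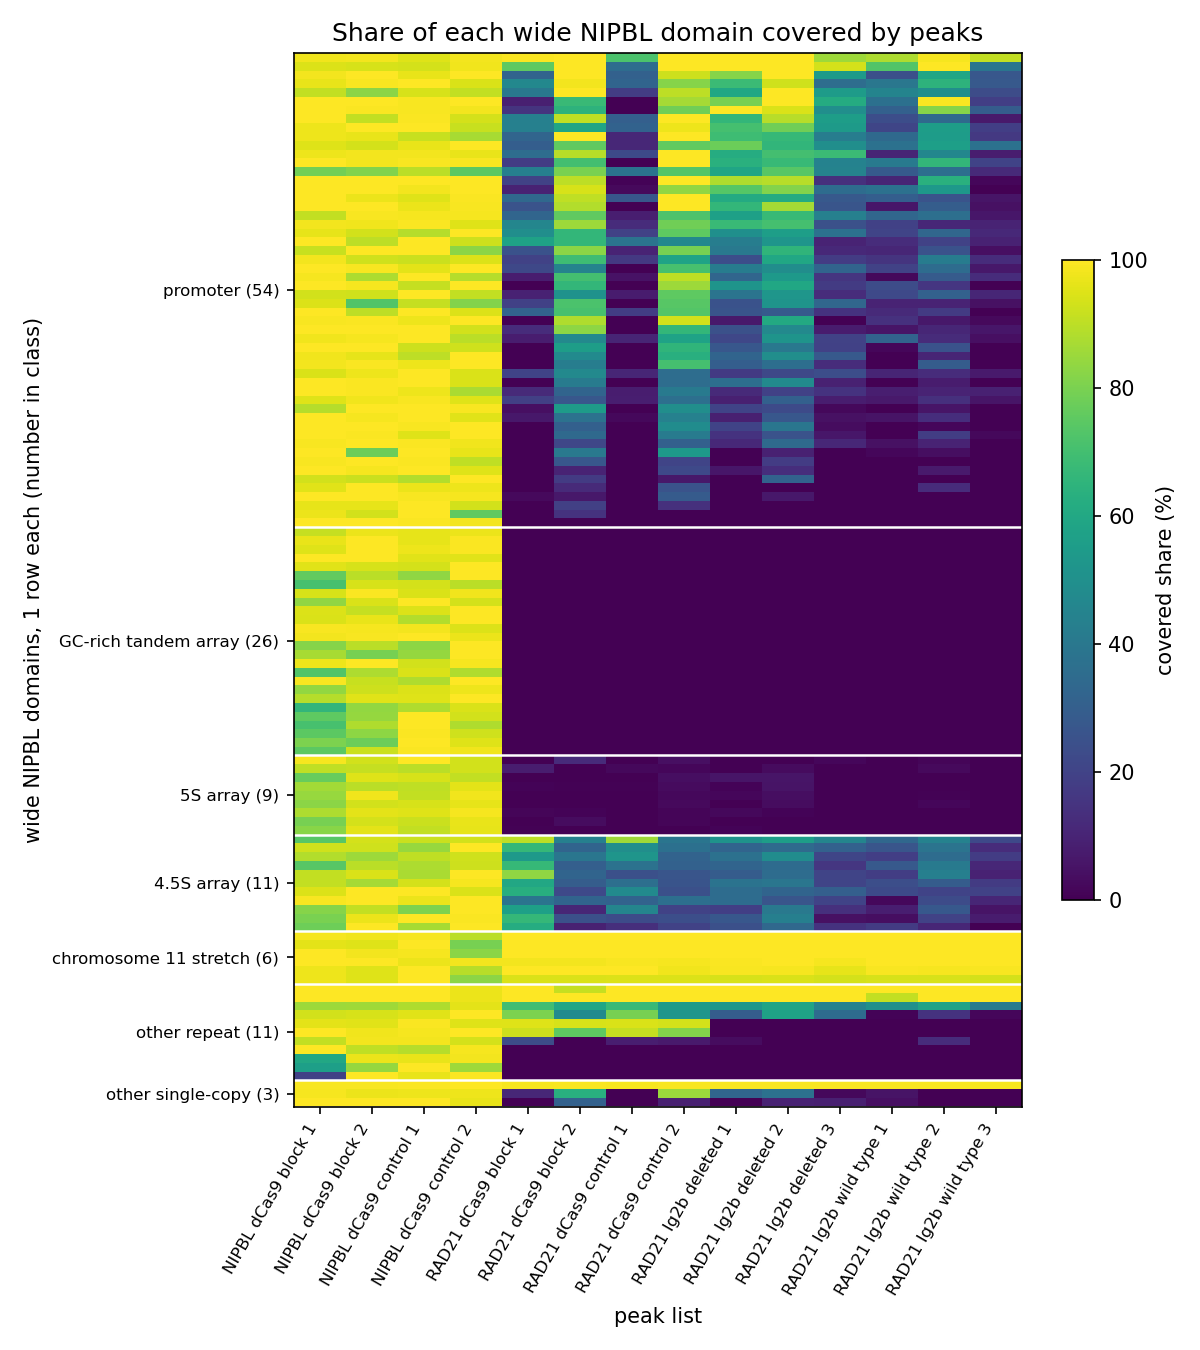
Share of each of the 120 domains covered by peaks (colour, 0 to 100%), 1 row for each domain and 1 column for each of the 14 peak lists, grouped by class and sorted by mean RAD21 share. NIPBL peaks cover nearly all domains in the block lists as in the control lists that chose them, whereas RAD21 coverage runs from 0% of the GC-rich tandem arrays to nearly 100% of the chromosome 11 stretch.

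The first comparison followed the domains in cells with the sgRNA. All 120 domains had a NIPBL peak in both block lists, against 73.4% of all NIPBL regions. Of the other NIPBL regions of 1000 bp or more 99.17% did, so regions of like length were close to the domains. With only peaks of a −log10 q of at least 3, 101 domains did. The median covered share was 96.33% in block replicate 1 and 96.91% in block replicate 2, against 97.48% and 97.04% in the control lists that chose the domains. A peak of 2000 bp or more stood in 100 domains in block replicate 1 and in 107 in block replicate 2, in both lists in 94, and in neither in 7. At Socs2 the covered length was 3953 and 3926 bp in block cells, against 3720 and 3525 bp in control cells. At Jun it was 3522 and 3597 bp in block cells, against 3627 and 3437 bp in control cells. The values of the 2 groups overlapped at Jun and not at Socs2. How many regions lack such overlap was not counted, so this is a description.

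Because the control lists chose the domains, their change is given as a description, and limma's moderated test is given over all regions. These regions too were chosen by having a peak in both control lists, so the test over them carries the same selection. It was fitted on log2(covered bp + 100) over the 27341 regions that passed the filter of a mean of 100 covered bp. The share called at an adjusted p under 0.05 was 0% higher and 0% lower over all regions. At an unadjusted p under 0.05 it was 0.315% higher and 6.69% lower, and no domain was among them. That direction was not stable: it was 1030 regions higher and 244 lower with only peaks of a −log10 q of at least 3, and 3628 higher and 1484 lower without control replicate 1. The median log2 change was -0.00296 over the domains and -0.03 over all regions tested. The authors' peak folds, which are not on 1 scale between lists, had a median over the domains of 8.583 and 6.691 in block cells, against 5.832 and 5.309 in control cells.

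Some repeats were covered less in block replicate 1 than in the other lists. The least covered was chr8:119083275-119086035, a 17-bp repeat, with 532 and 2761 bp of 2761 bp in block cells, against 2672 and 2742 bp in control cells. Next came Ahnak2, whose domain repeats with a period of 519 bp, with 1958 and 2933 bp of 3478 bp in block cells, against 3478 and 2969 bp in control cells. A 54-bp repeat within Stam2 (chr2:52552013-52558121) had 3665 and 5940 bp in block cells, against 5902 and 6007 bp in control cells. In each of the 3 the low value was block replicate 1. GC-rich tandem arrays followed: chr11:99685849-99688208 had 1555 and 1973 bp in block cells, against 2075 and 2228 bp in control cells, and chr6:56196537-56198724 had 1754 and 1700 bp in block cells, against 2188 and 2084 bp in control cells. Over all 26 arrays the log2 change was below 0 in 18 (median -0.08), and in the 5S array in 9 of 9 domains (median -0.08), while it was above 0 in 37 of 54 promoters (68.52%, median 0.01). Other regions of 1000 bp or more with a coding start and little repeated sequence were above 0 in 67.64% (median 0.04). These counts are a description, with no test.

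The block lists held more wide NIPBL peaks in all, 297 and 343, against 219 and 192 in the control lists. Regions wide in both block lists numbered 215, of which 94 overlapped a domain and 121 did not. All 121 had NIPBL peaks in both control lists, and 101 held a coding start. A region outside the domains could still be wide in 1 control list. At Socs1 the longest peak at an annotated start measured 2630 and 2216 bp in block cells, against 2412 and 1800 bp in control cells. No domain lay in Igh, Igk or Igl or on Rag1 and Rag2. The longest NIPBL peaks in Igh measured 2227 and 2294 bp in block cells, against 1038 and 1384 bp in control cells. The block peaks both lay at chr12:114572729-114575188, upstream of Ighg1 and 3995 bp past the highest coordinate of its annotation. Of these 2460 bp NIPBL peaks covered 2227 and 2294 bp in block cells, against 953 and 1302 bp in control cells. RAD21 peaks covered 2397 and 2362 bp there in block cells, and 0 bp in both control lists and in the 6 Ig2b lists. The labels do not give the target of the sgRNA by position.

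RAD21 was then followed across the domains, which had been chosen without it. It divided them by class. A RAD21 peak lay in 46 domains in all 10 lists (38.33%, against 12.22% of all NIPBL regions), and 30 domains had none in any list (25%, against 50.28%). Domains are longer and so are met by more peaks. Of the other NIPBL regions of 1000 bp or more, 15.66% had a RAD21 peak in all lists and 29.97% in none. Of those with a coding start and little repeated sequence, 18.38% had one in all lists and 4.76% in none. Within 1 kb around the midpoint, 15.83% of the domains had a peak in all lists, against 13.18% of all NIPBL regions. In single lists RAD21 peaks met this window in 25% to 65% of the domains, against 19.31% to 45.88% of all NIPBL regions. It was 17.83% to 62.63% of the other regions of 1000 bp or more. Of those with a coding start and little repeated sequence it was 19.91% to 85.76%.

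All 26 GC-rich tandem arrays were without a RAD21 peak in each of the 10 lists. Their NIPBL peaks were themselves low. The median top fold was 4.374 and 3.723 in block cells and 3.694 and 4.113 in control cells. At promoters it was 8.583 and 6.647 in block cells and 5.934 and 5.271 in control cells. With only peaks of a −log10 q of at least 3, NIPBL peaks remained in 24 and 9 arrays in block cells, against 9 and 20 in control cells. The largest, chr3:6299211-6307552, was covered by NIPBL peaks over 7619 and 8085 bp in block cells, against 8018 and 8097 bp in control cells. Its RAD21 coverage was 0 bp in every list. The nearest coding start lay a median of 107.9 kb from an array.

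The 5S array had very little RAD21. NIPBL peaks met 50 and 51 of the 51 5S genes in block cells, against 51 and 51 in control cells. RAD21 peaks met 1 and 7 of the 51 genes in block cells, against 0 and 16 in control cells. They met 7, 15 and 1 in deleted cells, against 1, 4 and 0 in wild type cells. The RAD21 share of a 5S domain was at most 12.33% in any list. In the largest domain, chr8:126131917-126143400, RAD21 covered 108 and 85 bp of 11484 bp in block cells, against 71 and 339 bp in control cells. It covered 104, 602 and 0 bp there in deleted cells, and 0 bp in all 3 wild type lists.

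The array of chromosome 6 with Rn4.5s had more RAD21. RAD21 peaks lay in all 11 of its domains in 9 lists and in 10 of 11 in wild type replicate 3. The median covered share was 62.79% and 30.1% in block cells, against 37.6% and 26.35% in control cells. It was 32.42%, 35.47% and 20.59% in deleted cells, against 18.47%, 28.97% and 11.12% in wild type cells. Its sequence had a median of 16 copies per word, against 49 in the 5S array. The tRNA domain of chromosome 1 had a RAD21 peak in 1 list, with a mean share of 0.01512%, while NIPBL block peaks covered 95.18% of it on average.

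At the other end stood the 6 domains of chr11:3026936-3099943, over and beside Sfi1, a gene for a centrosome protein. Of the 10 widest domains, 5 were among them. Their RAD21 share was between 93.42% and 100% in every list, whether the list was called against a control library or not. NIPBL covered 95.07% to 100% of each in the block lists, against 79.59% to 100% in the control lists. The other domains with a RAD21 share of more than 90% in all lists were chr8:19923853-19927271, chr8:56203933-56207054 and chr17:39979932-39985833. The last overlaps AY036118 and had the highest NIPBL folds of all domains, 70.12 and 64.91 in block cells, against 62.17 and 54.6 in control cells, all as given by the authors. It was sorted as single-copy from the assembled chromosomes only, so copies missing from the assembly were not counted. Inputs were not used here, so the part that an excess of reads in any library plays at these domains was not tested.

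A pair of 5-base repeats split the lists by experiment. They are shown because the same 5-base unit stands on opposite strands in them, with the first 5 bases in capitals to mark the length of a unit.
chr13:74666138-74666197, + strand: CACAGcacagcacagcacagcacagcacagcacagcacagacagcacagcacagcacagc
chr17:13743858-13743917, + strand: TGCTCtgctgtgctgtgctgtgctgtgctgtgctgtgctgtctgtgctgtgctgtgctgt
Both had RAD21 peaks in all 4 dCas9 lists and in none of the 6 Ig2b lists. Per the peak names, the dCas9 lists were called against a control library, whereas those of the Ig2b lists name no control library and speak of removed duplicates. The experiment and the way of calling cannot be told apart here.

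**Figure D2:**
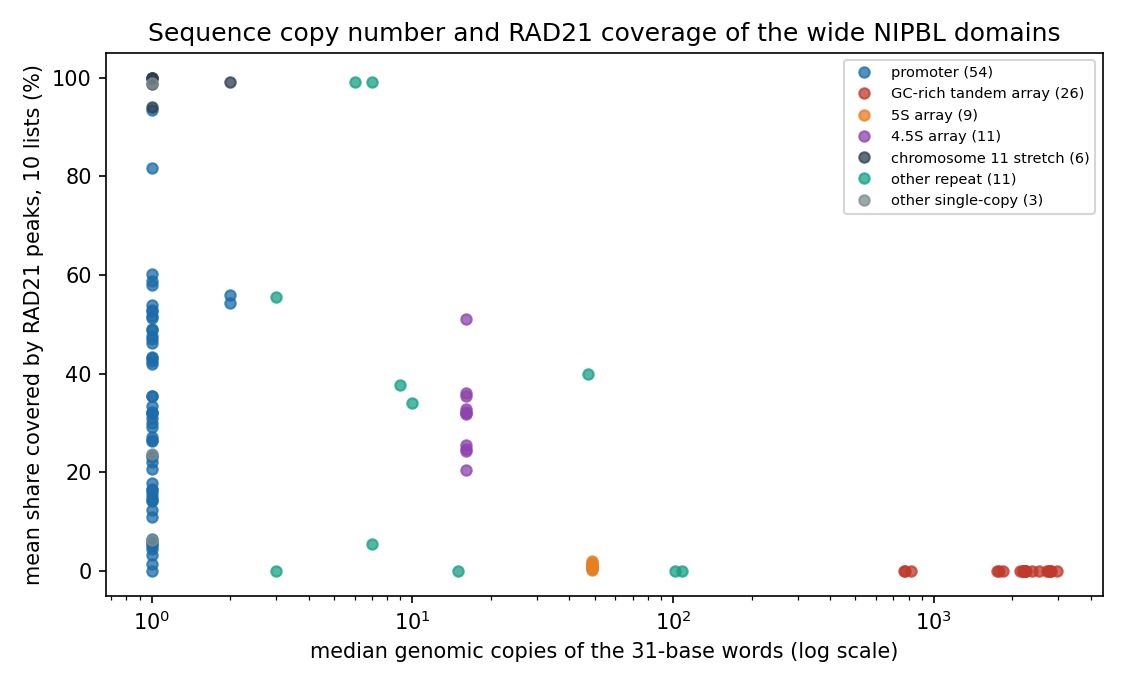
Mean share of each domain covered by RAD21 peaks over the 10 lists (%) against the median number of genomic copies of its 31-base words (log scale), 1 point for each of the 120 domains, coloured by class. Promoters at 1 or 2 copies spread from 0% to 93.37%, while the GC-rich tandem arrays, at 767 to 2973 copies, all lie at 0%.

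Promoter domains ran through the whole range of RAD21 coverage. The highest mean share over the 10 lists was 93.37% at Cited2, a coactivator that binds p300 and CBP, followed by 81.61% at Cux1, 60.29% at Klf13, 58.73% at Jun and 57.92% at Ddit4. The lowest were 0% at Hnrnpa0, 1.454% at Anp32a and 3.26% at Zbtb7a. At Cited2 RAD21 covered 2673 and 2692 bp of 2692 bp in block cells, against 1934 and 2692 bp in control cells. At Hnrnpa0 it covered 0 bp of 2317 bp in every list, though NIPBL covered 2317 and 2317 bp in block cells, against 2299 and 2273 bp in control cells. Wide NIPBL coverage of a promoter thus came with nearly full, partial or no RAD21 coverage.

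The order of the promoters by RAD21 share was similar between lists. Spearman's correlation over the 54 promoters ran from 0.4781 to 0.9254 over the 45 pairs of lists, with a median of 0.7565. This is a description: the lists share domain widths and neighbouring peaks. The level was not similar. The median RAD21 share was 13.97% and 66.04% in block cells, against 1.498% and 72.66% in control cells. It was 34.22%, 52.43% and 17.46% in deleted cells, against 10.54%, 22.39% and 5.149% in wild type cells. In the dCas9 experiment both replicate 2 lists were far above both replicate 1 lists, whatever the group. The same lists differ in the style of their peak names, and replicate 2 held 660 and 816 peaks of 2000 bp or more in block and control cells, where replicate 1 held 203 and 126.

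**Figure D3:**
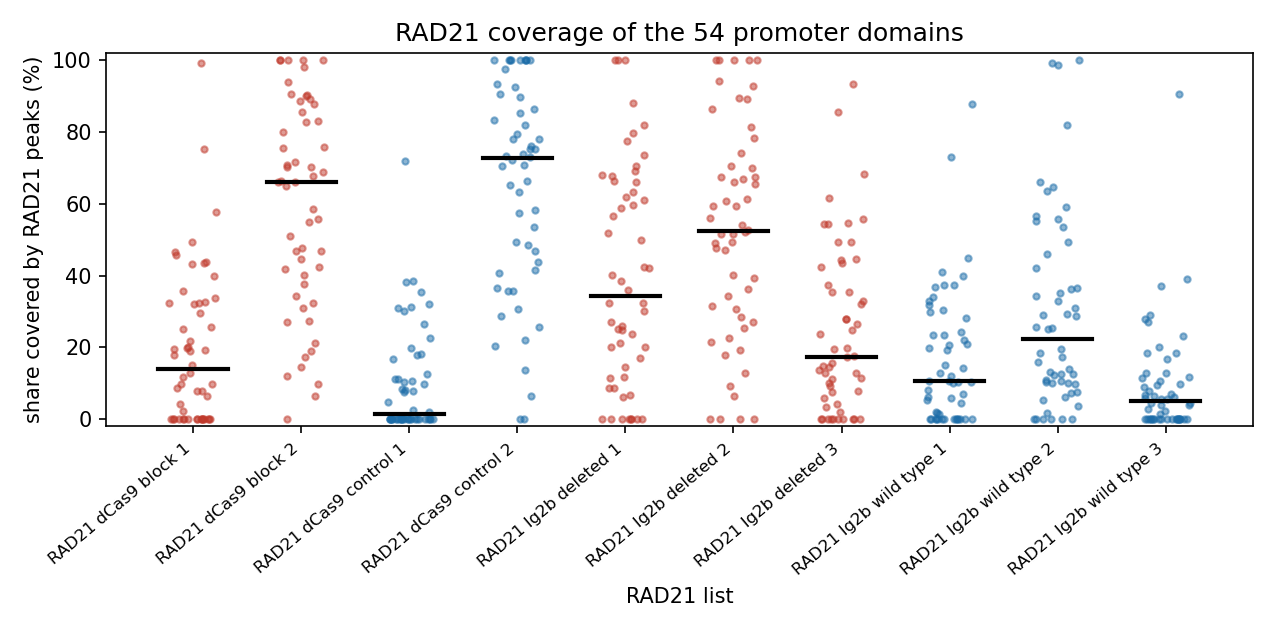
Share of each of the 54 promoter domains covered by RAD21 peaks (%) in each of the 10 RAD21 lists, 1 point for each domain, with the median as a bar (block and deleted in red, control and wild type in blue). The medians run from 1.498% in control replicate 1 to 72.66% in control replicate 2.

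Measured from the most upstream coding start in the domain, most NIPBL domains reached further past the start than before it. Where a gene has several starts, this choice lengthens the downstream side, and other choices were not tried. In the 44 promoter domains with 1 coding gene, the domain ran a median of 958 bp upstream and 1554 bp downstream of the outermost annotated start, and 35 of 44 reached further downstream. The Socs2 domain was the widest, 1008 bp upstream and 3046 bp downstream. RAD21 coverage dipped just inside the gene, with higher values on either side. At 575 bp past the start, NIPBL peaks covered 100% of the promoters in block cells and 100% in control cells. RAD21 peaks covered 27.27% there in block cells, against 29.55% in control cells, and 24.24% in deleted cells, against 7.576% in wild type cells (means of the lists of a group). At 725 bp before the start they covered 50% in block cells, against 46.59% in control cells, and 43.94% in deleted cells, against 21.97% in wild type cells. At 1075 bp past it they covered 44.32% in block cells, against 44.32% in control cells, and 46.97% in deleted cells, against 22.73% in wild type cells.

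**Figure D4:**
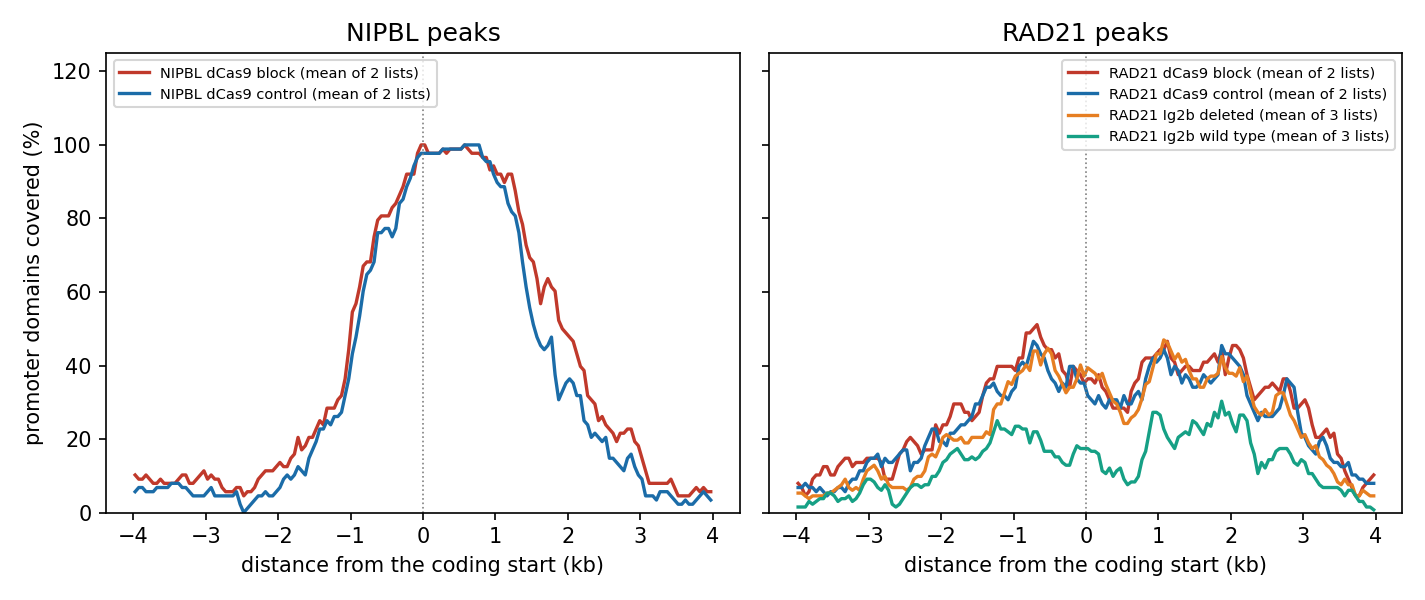
Share of the 44 promoter domains with 1 coding gene that peaks cover (%) by distance from the coding start (kb, 50 bp bins, transcription to the right), as the mean of the lists of each group. NIPBL coverage stands at 100% in both groups at 575 bp past the start, where RAD21 coverage is at 27.27%, 29.55%, 24.24% and 7.576% in block, control, deleted and wild type cells.

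The second comparison asked whether RAD21 at the domains differed between block and control cells. At Jun RAD21 covered 1692 and 3569 bp in block cells, against 1166 and 2985 bp in control cells. At Socs2 it covered 1317 and 4055 bp in block cells, against 451 and 4055 bp in control cells. At Foxo1 it covered 502 and 2306 bp in block cells, against 22 and 2559 bp in control cells. At each gene the groups overlapped or met, and the replicate number split the values more than the group did.

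No domain passed limma's test (11411 regions tested, 84 of them domains), and none was called over all regions either, 0% higher and 0% lower. At an unadjusted p under 0.05 the share of all regions was 0.21% higher and 0.0876% lower, with no domain among them. The median log2 change was 0.17 over the 84 domains and 0.02 over all regions. It rested on single libraries: over the domains it was 0.84 without block replicate 1, -0.00688 without block replicate 2, -0.57 without control replicate 1 and 1.17 without control replicate 2. Within replicate 1 the median difference was 0.33 over the domains (59 higher, 3 lower in block cells), and within replicate 2 it was -0.06 (29 higher, 49 lower). All regions turned in the same way, with 5022 higher and 1114 lower within replicate 1 and 3157 higher and 4904 lower within replicate 2. No domain had a RAD21 peak in both block lists and in neither control list, or the reverse, where 0.202% of all regions were gained and 0.0466% lost by that rule.

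The third comparison asked whether RAD21 at the domains differed in cells that lack Ig2b. The covered length was higher in deleted cells in most domains, though none passed the test. Of the 72 domains tested, 66 had a log2 change above 0, with a median of 0.91, which was 0.56 without wild type replicate 3. All 46 promoters tested were among them, with a median of 1.13. Other regions moved the same way: 78.81% of all 7890 regions tested were above 0, with a median of 0.3, and 94.11% of the 1222 regions of 1000 bp or more with a coding start and little repeated sequence, with a median of 0.77. The chromosome 11 stretch, covered nearly whole in all lists, had 2 domains above and 3 below 0 and 1 at 0 (changes within 1e-06 of 0 counted as 0).

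**Figure D5:**
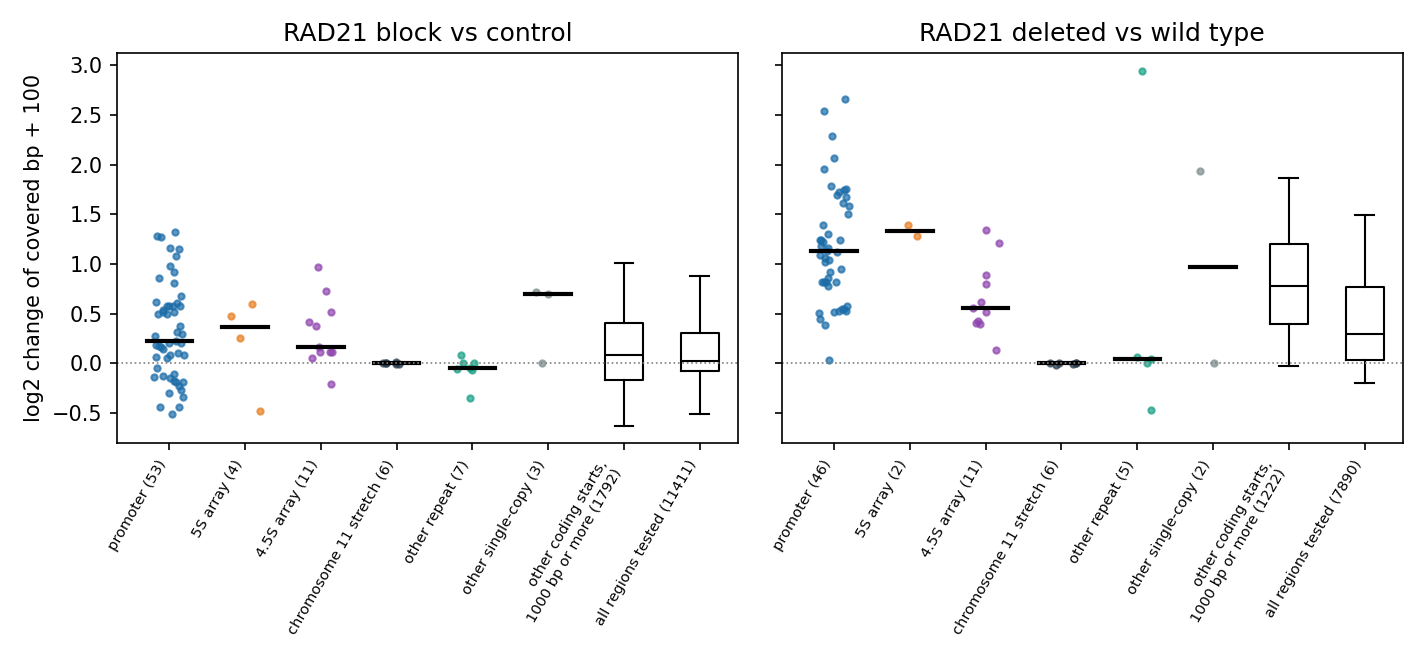
Log2 change of RAD21 covered bp (+ 100) by class of domain in block against control cells (left) and deleted against wild type cells (right), 1 point for each domain tested and a bar at the median. Boxes show other coding starts of 1000 bp or more and all regions tested (quartiles, whiskers at the 5th and 95th percentiles), and the promoters of the right panel, with a median of 1.13, all lie above 0.

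None of the 72 domains passed limma's test at an adjusted p under 0.05, where 0.253% of all regions were called higher and 0.0127% lower. At an unadjusted p under 0.05, 9.57% of all regions were higher and 0.165% lower. Of the other regions of 1000 bp or more, 229 of 1525 were higher. Of those with a coding start and little repeated sequence, 192 of 1222 were higher. Of the 72 domains, 14 were higher and none lower. The smallest p belonged to chr6:47701989-47704463 in the array with Rn4.5s, with 876, 794 and 751 bp in deleted cells, against 552, 501 and 492 bp in wild type cells (log2 change 0.56, SE 0.07, limma adjusted p 0.134). The groups did not overlap there. At Patz1, the gene of a zinc finger transcription factor, RAD21 covered 711, 1461 and 929 bp in deleted cells, against 287, 282 and 131 bp in wild type cells (log2 change 1.75, SE 0.34, limma adjusted p 0.288).

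At Arid1a, a subunit of the BAF remodelling complex, it covered 399, 507 and 557 bp in deleted cells, against 242, 297 and 167 bp in wild type cells (log2 change 0.82, SE 0.19, limma adjusted p 0.334). The groups did not overlap at either gene. At 6430527G18Rik it covered 782, 1189 and 675 bp in deleted cells, against 0, 251 and 0 bp in wild type cells. A 19-bp repeat, chr10:7229389-7235299, had 1743, 3403 and 2065 bp in deleted cells, against 51, 869 and 109 bp in wild type cells. Both again had no overlap between the groups, and neither passed the test. These 5 domains were picked by the smallest p, which favours groups without overlap. The share of all regions without overlap was not counted, so the lack of overlap is a description.

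At other named promoters single libraries stood out. At Pim1 RAD21 covered 153, 1387 and 0 bp in deleted cells, against 323, 144 and 62 bp in wild type cells, so that 1 deleted library was high and another had no peak. At Bach2 it covered 1556, 1730 and 1198 bp in deleted cells, against 461, 1230 and 408 bp in wild type cells, where deleted replicate 3 was below wild type replicate 2. At Cux1 it covered 3244, 3244 and 3031 bp in deleted cells, against 2369, 3244 and 1263 bp in wild type cells.

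List length differed too, with overlap between the groups. Deleted lists covered 18.12, 25.07 and 11.87 Mb of the genome, against 14.21, 15.12 and 11.53 Mb in wild type lists. Between same-numbered lists the median log2 difference over the domains was 0.92, 0.58 and 0.93 in replicates 1, 2 and 3. Over all regions tested it was 0.232, 0.2462 and 0.09693. These numbers carry no stated pairing, and the part that list length plays was not tested. With the lists brought to 1 distribution by quantile normalization, the median change was 0.55 over the domains and -0.11 over all regions, with 59 of 72 domains and 42.21% of all regions above 0. No domain had a RAD21 peak in all 3 deleted lists and in no wild type list, or the reverse, where 0.681% of all regions were gained and 0.0342% lost by that rule.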

How the data were processed

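ChIP-seq reads were mapped by Bowtie2 2.2.8 against mm9 and handled with SAMtools 1.8, and MACS2 called broad peaks, per the submitters' processing notes; the MACS2 version and settings are not given in the sources used here. Peaks were called per library in 14 deposited lists, per the peak names. Each deposited peak carries the authors' fold, a ratio to the caller's background, and a −log10 p-value and −log10 q-value. The deposited score of each peak, which the authors' caller derives from the q-value, was not used. The 4 inputs were not used here. Depth was unknown, since the lists hold no read counts.

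NIPBL regions, domains and covered bp were computed from the peak coordinates (1 bp overlap) with Python 3.11.15, numpy 2.4.6, pandas 2.3.3 and pysam 0.24.0. Repeats were measured by 31-base words and BLAST+ 2.17.0 alignments, genes taken from GENCODE vM1 on mm9, and gene names beside the small RNA arrays from RefSeq (GRCm38.p6). Changes were fitted with limma 3.58.1 in R 4.3.3 on log2(covered bp + 100), for regions averaging 100 covered bp or more, with no normalization between lists, two-sided tests and Benjamini-Hochberg adjustment over all regions tested. The script was tested on simulated data.

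Alternatives were a stricter q, other pseudocounts, filters, overlaps and widths, quantile normalization, 10 kb windows, a replicate block, joint fits and leaving out each list. Leaving out lists was added after seeing the data for the number of domains and for domains with a peak in every list, in none or in both block lists. Named domains were the 10 longest, those with most RAD21 coverage, those in the gene lists, up to 5 in each direction by p, and the extremes of each class; others were picked once their values were known. The domains and gene lists were chosen with earlier results of these data known. The sequence of 1 of the gene arrays is not reported here.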

Additional observations from a re-analysis of the deposited data

How the results depend on the processing

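In the comparison of RAD21 between deleted and wild type cells, 21 regions passed the threshold in all. The number was 149 with peaks of a −log10 q of at least 3, 12 with 500 bp added, 33 with no filter, 4 with all 10 RAD21 lists in 1 fit, and 0 with quantile normalization and with 10 kb windows. With the replicate number as a block it was 0. Leaving out a library gave 0 to 190. In that comparison 2 of the 48 domains tested passed with the stricter peaks, where 149 of 3844 regions did, so the shares were close. The 2 were Trib1 (log2 change 2.49, limma adjusted p 0.00648) and Cxxc5 (log2 change 2.119, limma adjusted p 0.01566). Leaving out a library gave 0 to 1 domain. Without wild type replicate 2 it was Dyrk2 (limma adjusted p 0.0322), 1 of 72 domains, where 49 of 7886 regions were higher. Without deleted replicate 3 it was chr8:126118339-126124065 in the 5S array (limma adjusted p 0.000844), 1 of 74 domains. There 185 of 8287 regions were higher and 5 lower. RAD21 in block against control cells gave 0 regions, and 4 with all 10 RAD21 lists in 1 fit, and the replicate block left it at 0. NIPBL in block against control cells gave 0 regions, 1009 with stricter peaks (877 higher, 132 lower) and 0 to 441 on leaving out a library, the 441 (2 higher, 439 lower) without control replicate 1, so that the direction of the calls turned between these settings. By quantile normalization the share of regions above 0 was 46.3% for RAD21 in block against control cells, where it was 53.41%, and 61.75% for NIPBL, where it was 45.72%.

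Domains gained in block cells numbered 0, and 0 to 11 on leaving out a library, the 11 (9.167%, against 6.717% of all regions) without control replicate 2. Domains lost numbered 0, with 3 under stricter peaks (2.5%, against 0.09019% of all regions) and 0 to 3 on leaving out a library, the 3 (2.5%, against 3.464%) without control replicate 1. Domains gained in deleted cells numbered 0, with 3 under stricter peaks (Pou2f1, Trib1 and chr10:7229389-7235299), 2.5%, against 0.622% of all regions. When a peak had to cover 10% of the domain, 1 was gained (Trim8), 0.8333%, against 0.6624% of all regions. Leaving out a library gave 0 to 5, the 5 (4.167%, against 2.196% of all regions) without wild type replicate 2. Domains with a RAD21 peak in every list numbered 46, with 17 under stricter peaks (14.17%, against 6.59% of all regions), 10 at 50% coverage (8.333%, against 5.327%) and 19 within 1 kb of the midpoint (15.83%, against 13.18%). Those with none numbered 30 (25%, against 50.28% of all regions). They were 46 under stricter peaks (38.33%, against 67.72%) and 58 at 50% coverage (48.33%, against 64.54%). Within 1 kb of the midpoint they were 36 (30%, against 47.7%). The number of domains, 120, was 380 at a minimum width of 1500 bp and 29 at 3000 bp, and 192 to 219 with only 1 control list. The replicate numbers carry no stated pairing: same-numbered lists correlated in their deviations at 0.7277 for RAD21 in the dCas9 experiment, at -0.009439, 0.2736 and 0.2205 in the Ig2b experiment, and at 0.0879 for NIPBL.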
